A study of Arabidopsis thaliana with 18 samples.

Results

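Leaves of the Arabidopsis *fc2* mutant were compared between cycling light (16 h light and 8 h dark) and constant (24 h) light. The comparison holds 6 of the 18 RNA-seq libraries of the series, 3 from *fc2* in cycling light and 3 from *fc2* in 24 h light, chosen by the genotype and light regime in their labels. According to the labels, plants of the cycling groups spent 17 days in constant light and then 2 days in cycling light, plants of the 24 h groups stayed in constant light, and all were harvested at 19 days, 1 h after subjective dawn. Every *fc2* plant carried the *fc2-1* allele, a T-DNA insertion in the leader of *FC2*, from a single line. Total leaf tissue of 3 plants was pooled for each replicate, so the libraries of a group were separate pools of plants. The 12 other libraries, from *fc2 pub4* (*fc2-1* together with the *pub4-6* point mutation in the E3 ubiquitin ligase gene *PUB4*) and from wt in the same 2 regimes, served to test where the light response of *fc2* differed, to compare levels where that is stated, to check the *FC2* labels and in the scaling of values.

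*FC2* encodes a plastid ferrochelatase, the enzyme that inserts iron into protoporphyrin IX to make heme. Protoporphyrin IX and the other free tetrapyrroles absorb light and pass the energy to oxygen, which yields singlet oxygen (1O2), a reactive oxygen species made in the chloroplast. In plants that see a night, tetrapyrrole synthesis is activated at dawn, and in *fc2* the unused protoporphyrin IX then builds up, while in constant light the mutant is spared most of this stress. A regime with nights also sets the circadian clock, starch turnover and the sugar status of leaves in general, which transcript counts do not measure directly. The same shift in wt was therefore set beside that in *fc2*, and every statement that *fc2* moved further or less rests on the interaction, the light response (log2FC of cycling over 24 h light) of *fc2* minus that of the other genotype. Values are CPM (counts-per-million) scaled by the trimmed mean of M-values, and as bulk tissue was sampled, fewer cells of a type and less RNA per cell cannot be told apart.

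The *fc2* libraries held 34336419 to 37880398 counts in cycling light and 30100674 to 34331853 counts in 24 h light. The 10 loci with most counts took 3.68 to 4.40% of them in cycling light and 5.90 to 6.59% in 24 h light. *FC2* was present at 46.3, 56.1 and 48.3 CPM in the *fc2* libraries in cycling light and at 34.6, 31.3 and 29.9 CPM in 24 h light. All were below wt (167 ± 7.96 CPM in cycling light and 152 ± 21.5 CPM in 24 h light, SD, n = 3 each). *OFP17* (AT2G30395), next to *FC2*, stood at 213, 201 and 216 CPM in cycling light and 208, 168 and 225 CPM in 24 h light in *fc2*, against 1.09 ± 0.268 CPM in cycling light and 1.17 ± 0.198 CPM in 24 h light in wt. Both genes thus went with the labels. Summed over 5 leaf mesophyll markers, all genes of photosynthesis, the level was 20059 to 25249 CPM in cycling light and 38363 to 44378 CPM in 24 h light. Root and seed markers summed to at most 0.465 and 0.199 CPM in any *fc2* library, so these tissues' defining genes were at or near 0. A set of 8 flower genes summed to 10.7 to 28.9 CPM in cycling light and 19.6 to 45.2 CPM in 24 h light. None of the 8 was at 0, 1 fell (*SEP1*, or 0 to 3 of the 8 with a single library left out) and none rose, and the part of such tissue in the results was not tested. In each group a library stood somewhat apart. Replicate 3 in cycling light had lower values of many jasmonate and senescence genes, and replicate 2 in 24 h light had lower values of morning clock genes and of several antenna genes. Results that turned on either are given without it.

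Of 20168 genes tested, 4587 (22.7%) were higher and 4302 (21.3%) lower in *fc2* in cycling light at padj < 0.01 (edgeR quasi-likelihood F-test, Benjamini-Hochberg). With an absolute log2FC above 1.5 as well, there were 1391 up-regulated (6.9%) and 526 down-regulated DEGs (2.61%). In wt the same shift gave 440 up-regulated (2.24%) and 330 down-regulated DEGs (1.68%) among 19600 genes tested, and in *fc2 pub4* 614 (3.09%) and 402 (2.03%) among 19839. All cycling libraries lay above all 24 h libraries of *fc2* for 33.6% of the genes tested and below them for 31.8%. Scaled by library size alone, 62.0% of the genes called in *fc2* were higher, against 51.6% here. Of the up-regulated *fc2* DEGs, 196 were also up-regulated DEGs in wt, which is 14.1% of the *fc2* list and 44.5% of the wt list. Of the down-regulated *fc2* DEGs, 164 were shared with wt, 31.2% of the *fc2* list and 49.7% of the wt list. The median log2FC of the up-regulated *fc2* DEGs was 2.36 in *fc2* and 0.47 in wt, and that of the down-regulated ones was -1.86 in *fc2* and -0.94 in wt. The wt medians cover the 1146 and 515 of these DEGs that were tested in wt. As the DEGs were selected by their size in *fc2*, a larger median in *fc2* is not independent of that choice.

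Tested directly, the light response was higher in *fc2* than in wt for 3122 genes (15.3%) and lower for 3259 (16.0%) of 20411. Of the 1386 up-regulated *fc2* DEGs in this test, 874 (63.1%) rose further than in wt, 21 rose less and 491 did not pass. Of the 525 down-regulated ones, 249 (47.4%) fell further, 8 fell less and 268 did not pass. The interaction shares the *fc2* libraries with the selection of these DEGs, so the split describes the list and is not independent of it. Set against *fc2 pub4*, 815 up-regulated DEGs (58.6%) rose further in *fc2* and 233 down-regulated DEGs (44.4%) fell further. The other way round, of the 440 up-regulated DEGs of wt 141 rose less in *fc2*, 30 rose further and 269 did not pass or were not tested, and of the 330 down-regulated ones 119 fell less, 12 fell further and 199 did not pass or were not tested. This test again shares libraries with the selection. The DEGs of wt had a median log2FC of 1.43 in *fc2* against 1.95 in wt for those up-regulated and of -1.52 against -1.98 for those down-regulated. The *fc2* medians cover the 433 and 326 of these genes tested in *fc2*, and the genes were selected by their size in wt. Counts of list members below stand against the shares over all genes tested. They were 22.7% higher and 21.3% lower for the light response of *fc2*. For the interaction they were 15.3% and 16.0% with wt and 14.2% and 14.1% with *fc2 pub4*.

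**Figure D1:**
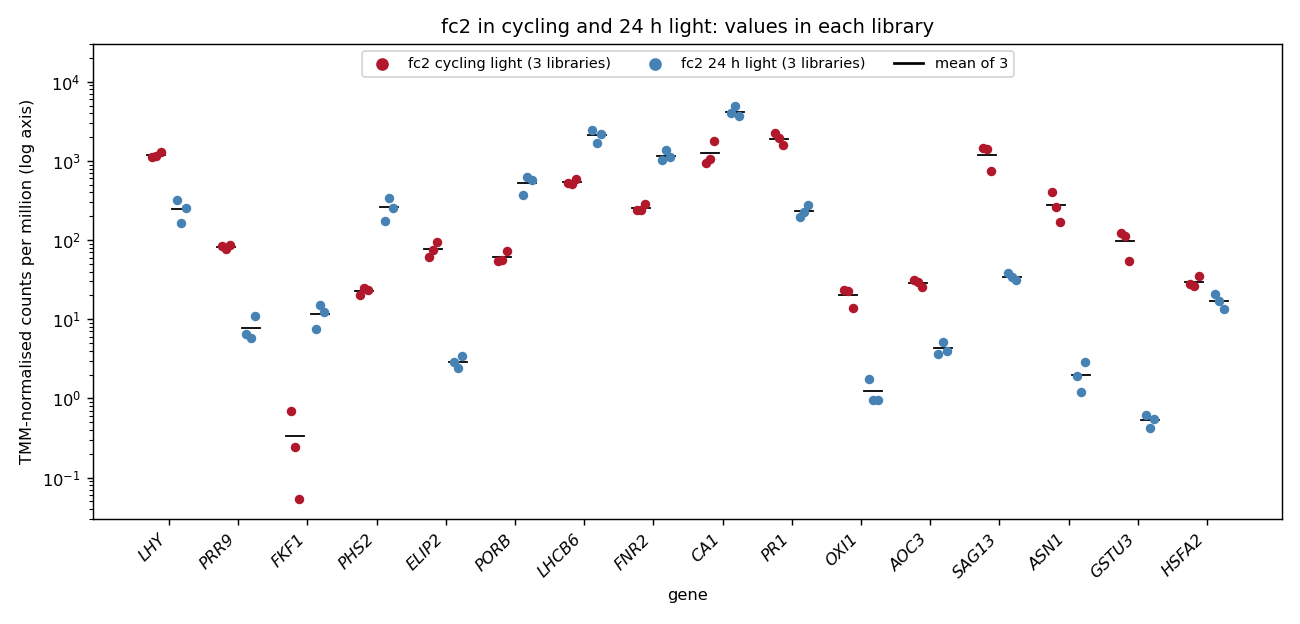
Level of 16 genes in each *fc2* library (TMM-normalised counts-per-million, log axis), cycling light in red left of 24 h light in blue, with the mean of 3 libraries as a bar. The groups did not overlap for any of the 16. Over all genes tested in *fc2*, 33.6% lay wholly above and 31.8% wholly below in cycling light. *FKF1* fell to 0.0531 to 0.696 CPM in cycling light against 7.62 to 15.2 CPM in 24 h light, and *PR1* and *SAG13* were far above their 24 h levels.

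Short motifs were counted in the promoters of the genes on either side of this split. In the 500 bases before the annotated start, read on both strands, the evening element (AAATATCT), which the morning clock proteins CCA1 and LHY are known to bind, occurred in 8.82% of the 20065 promoters of tested nuclear genes. It was present in 29.2% of the 144 genes down-regulated in both *fc2* and wt with an interaction that did not pass, in 14.1% of those that fell further in *fc2* and in 8.71% of the up-regulated DEGs. The G-box (CACGTG), known to be bound by light-regulated bZIP and bHLH factors such as HY5, occurred in 10.3% of all promoters, in 27.1% of the 144 genes up-regulated in both genotypes with an interaction that did not pass and in 12.4% of those that rose further in *fc2*. The W-box (TTGACC or TTGACT), the site of WRKY factors, was in 44.7% of all promoters, in 58.5% of the DEGs that rose further in *fc2* and in 36.6% of all down-regulated DEGs. The I-box (GATAAG), found in many photosynthesis promoters, was in 22.6% of all promoters in 30.6% of the DEGs that fell further in *fc2*, in 33.3% of those down-regulated in both genotypes with an interaction that did not pass and in 25.7% of the up-regulated DEGs. The heat shock element (GAA, TTC and GAA with NN between them) was in 0.857% of all promoters and 1.15% of the up-regulated DEGs, and the dehydration-responsive element (ACCGAC) in 9.12% and 8.99%. None of these motifs holds another, though the ends of a W-box and a dehydration-responsive element can overlap. These are counts of letters and not of bound sites, and no test was made of the shares.

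**Figure D2:**
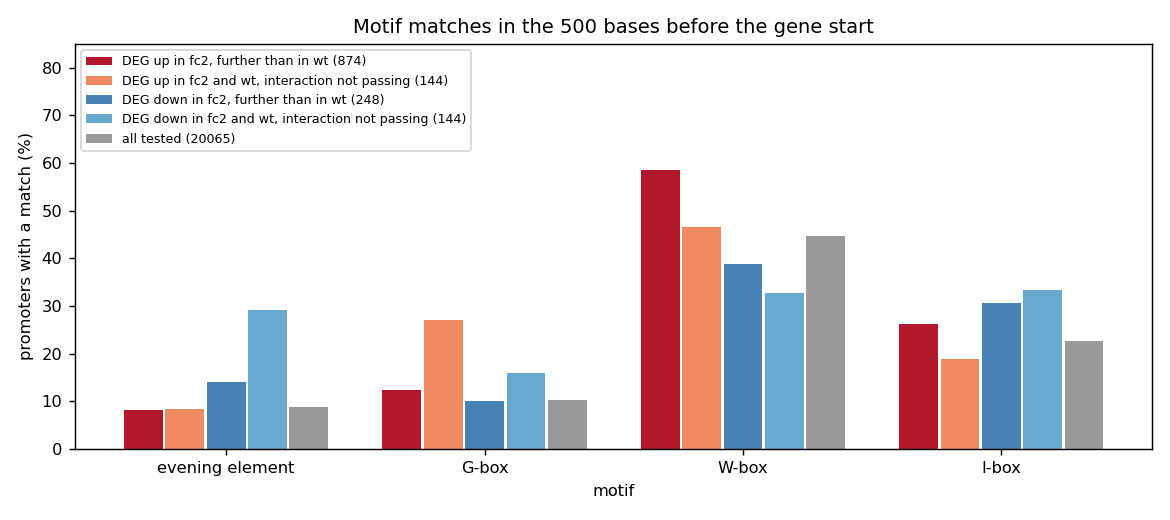
Percent of promoters (500 bases before the annotated start) with at least 1 match to a motif, for DEG classes of *fc2* and for all 20065 promoters of tested genes. The evening element reached 29.2% in DEGs that fell in *fc2* and wt with an interaction that did not pass, the G-box 27.1% in the same class of DEGs that rose, and the W-box 58.5% in DEGs that rose further in *fc2*.

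The following stretches of 30 bases show these motifs in genes described below, from clock and light genes that moved in both *fc2* and wt (*FKF1*, *PORB*, *ELIP1*), from a heat shock factor (*HSFA2*) and from defence and starvation genes that moved further in *fc2* (*PR1*, *DIN2*). They come from the TAIR10.1 reference and run 5′ to 3′ on the strand of the gene, with the motif in capitals.
*FKF1*, evening element, chr1:25508349-25508378, plus strand, 272 bases before the start, 1 of 4 matches: caaacaaaaacAAATATCTtccctcaaatc
*PORB*, evening element, chr4:13725394-13725423, plus strand, 134 bases before the start: acattaaaataAAATATCTaaggagaagga
*ELIP1*, G-box, chr3:8085718-8085747, minus strand, 61 bases before the start: tactatatgattCACGTGtaatgtttttga
*HSFA2*, heat shock element, chr2:11135528-11135557, plus strand, 76 bases before the start: ttagtaacGAAGTTTCTGGAAcattgtctt
*HSFA2*, G-box, chr2:11135556-11135585, plus strand, 51 bases before the start, 1 of 2 matches: ttgtcttgtcgcCACGTGctcacataaatg
*PR1*, W-box, chr2:6242992-6243021, minus strand, 463 bases before the start, 1 of 2 matches: aacaaataattcTTGACTttttttctttta
*DIN2*, W-box, chr3:22216235-22216264, plus strand, 288 bases before the start, 1 of 2 matches: gtagccataatgTTGACCacattcaacagt

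The clock genes of *fc2* moved with the light regime, as they did in wt. Of 12 morning genes, 10 rose and 1 fell in *fc2* in cycling light (median log2FC 1.38, against -0.02 over all genes tested), and none differed from wt at padj < 0.01 (0 to 4 with a lower response when a single library was left out). *LHY*, a MYB factor at the core of the morning loop, was at 1112, 1168 and 1312 CPM in cycling light and at 323, 163 and 252 CPM in 24 h light (log2FC 2.26 ± 0.22 SE, padj = 2.6e-05), against 2.60 in wt. Its partner *CCA1* stood at 692, 637 and 715 CPM in cycling light and 239, 108 and 188 CPM in 24 h light, where the second value belongs to the replicate that stood apart. Without that library 8 morning genes rose and 1 fell. *RVE2* was the one member that fell (log2FC -2.02, padj = 2.4e-05, wt -2.58). Set against *fc2 pub4*, however, 7 of the 12 rose less in *fc2*, among them the coactivator genes *LNK4* (interaction -1.79, padj = 1.1e-04) and *LNK2* (-1.59, padj = 0.001). Between 4 and 9 did so when a single library was left out.

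Of 15 day and evening clock genes, 3 rose and 9 fell in *fc2* (median -1.57), at a background of 22.7% and 21.3%. *PRR9*, the pseudo-response regulator that peaks first after dawn, had 84.7, 78.1 and 85.4 CPM in cycling light and 6.53, 5.86 and 11.1 CPM in 24 h light (log2FC 3.38 ± 0.20 SE, padj = 2.0e-06, wt 3.93). However, 41.1% of its 50-base stretches occur elsewhere in the genome, so reads may have been shared. *FKF1*, a blue light receptor of the afternoon and the carrier of 4 evening elements, had 0.696, 0.245 and 0.0531 CPM in cycling light and 7.62, 15.2 and 12.2 CPM in 24 h light (log2FC -5.11 ± 0.50 SE, padj = 2.7e-05). *PRR3* and *ELF4*, a component of the evening complex, fell as well (log2FC -4.85 and -4.09, padj = 6.5e-06 and 1.9e-05). For the evening regulator *TOC1* the fall was smaller than in wt, with a log2FC of -0.98 in *fc2* against -2.07 in wt (interaction 1.12 ± 0.25 SE, padj = 0.0022). *PRR5* had -2.54 against -4.60 (interaction 2.08 ± 0.53 SE, padj = 0.0058), a difference that passed no longer when any of 7 of the 12 libraries was left out. *CHE*, a repressor of *CCA1*, was the one member that fell further in *fc2* (log2FC -1.93, interaction -1.05, padj = 3.7e-06).

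Starch genes also moved with the regime in both genotypes. Of 14, 10 fell and 3 rose in *fc2* (median -1.84), at a background of 21.3% lower and 22.7% higher. Against wt 2 had a lower response at padj < 0.01, at a background of 16.0%. This count was 1 to 5 when a single library was left out, with 5 without *fc2* replicate 1 in 24 h light. *PHS2*, a cytosolic glucan phosphorylase, had 20.1, 25.0 and 23.2 CPM in cycling light and 175, 343 and 256 CPM in 24 h light (log2FC -3.52 ± 0.23 SE, padj = 3.0e-06, wt -3.11), and the amylase gene *AMY3* fell too (log2FC -3.84, padj = 5.1e-07). *GBSS1*, the granule-bound starch synthase and a known target of the morning clock, rose to 600.3, 614 and 776 CPM in cycling light against 175, 93.0 and 134 CPM in 24 h light. This was less than in wt (log2FC 2.29 in *fc2* and 3.61 in wt, interaction -1.30, padj = 0.0015). The beta-amylase gene *BAM1* rose with a log2FC of 1.79 (padj = 6.1e-06), with an interaction that did not pass (0.54, padj = 0.012).

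Of 14 regulators of light signalling and chloroplast development, 6 rose and 3 fell in *fc2*, at a background of 22.7% and 21.3%. *HY5*, the bZIP factor of photomorphogenesis, was at 87.8, 84.5 and 76.0 CPM in cycling light and 17.9, 16.6 and 16.4 CPM in 24 h light (log2FC 2.26 ± 0.08 SE, padj = 5.1e-07, wt 2.00). The early light-induced proteins, which bind free chlorophyll, rose most. *ELIP2* had 61.7, 75.1 and 94.6 CPM in cycling light and 2.88, 2.40 and 3.40 CPM in 24 h light (log2FC 4.71 ± 0.19 SE, padj = 5.1e-07). The response of wt was 4.86 (interaction -0.13, padj = 0.75). *ELIP1* and the GATA factor *CGA1* rose with log2FC of 3.47 and 2.81 (padj = 1.0e-06 and 7.4e-07), also with no difference from wt past the threshold. Both *ELIP* genes, however, rose less than in *fc2 pub4* (-1.79 for *ELIP1*, padj = 0.0015, and -2.16 for *ELIP2*, padj = 2.6e-04). *PIF4*, a bHLH factor of growth in the dark, fell (log2FC -2.21, padj = 6.6e-06). *GLK2*, an activator of photosynthesis genes, fell in *fc2* (log2FC -0.66, padj = 2.2e-04) where wt had 0.19 (interaction -0.83, padj = 2.9e-04).

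The genes that changed most in this group of shared responses were taken from the DEGs of both genotypes with an unadjusted interaction p above 0.05. On the rising side were *PUB19*, a U-box E3 ligase gene (23.9, 19.4 and 14.1 CPM in cycling light and 1.15, 1.28 and 0.494 CPM in 24 h light), *ELIP2*, *SQP2*, *ABCF2* and AT1G07500, with log2FC of 4.28 to 5.42 in *fc2* and 2.93 to 4.86 in wt. On the falling side were *PRR3*, AT1G49230 (a RING/U-box protein), AT3G51400, AT3G62550 and AT2G39920, with log2FC of -5.53 to -4.85 in *fc2* and -5.75 to -4.41 in wt. AT3G62550, for instance, had 0.720, 1.06 and 1.33 CPM in cycling light and 25.4, 47.0 and 38.6 CPM in 24 h light. A p above the threshold does not show that the responses were alike, and *SQP2* and AT1G07500 had at most 0.176 CPM in 24 h light.

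**Figure D3:**
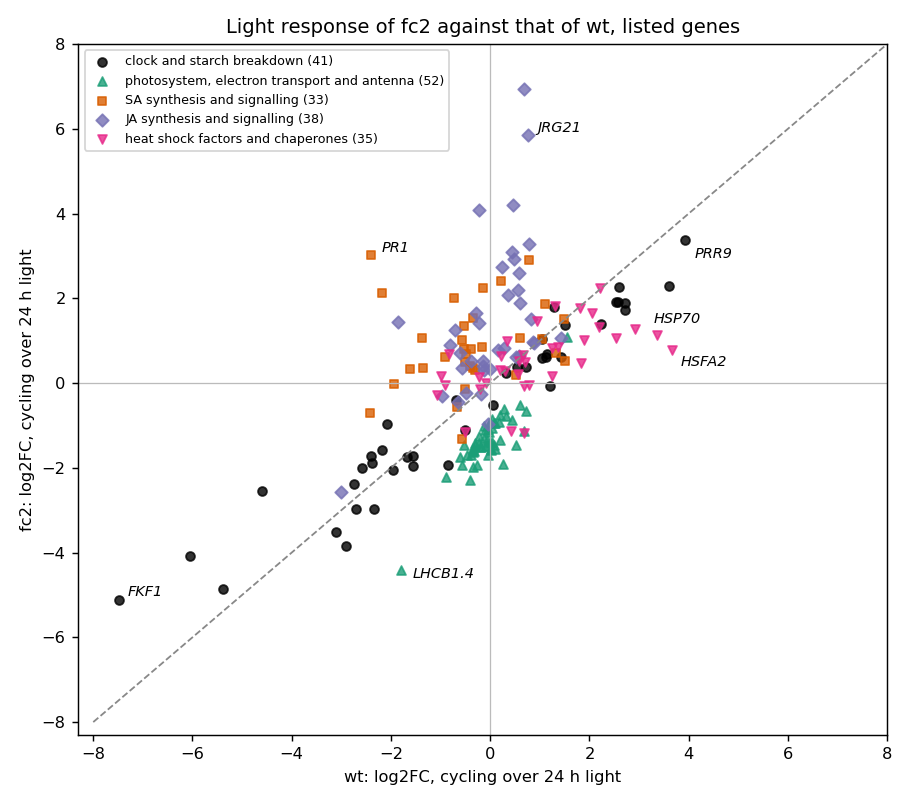
Light response (log2FC, cycling over 24 h light) of each listed gene in *fc2* (vertical) against wt (horizontal), with equality as a dashed line. Most clock and starch genes lie near the line, nearly all photosystem and antenna genes lie below 0 in *fc2* and around 0 in wt, most SA and JA genes lie above the line, and *HSFA2* and *HSP70* lie below it.

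Photosynthesis genes fell in *fc2* and did so beyond wt. All 31 nuclear genes of the photosystems and of electron transport were lower in cycling light (median log2FC -1.30). All 31 had a lower light response than in wt and than in *fc2 pub4*, at a background of 21.3%, 16.0% and 14.1% lower over all genes in the 3 tests. *FNR2*, which encodes ferredoxin-NADP reductase, had 237, 242 and 289 CPM in cycling light and 1025, 1354 and 1116 CPM in 24 h light, with no overlap. Its log2FC was -2.21 ± 0.13 (SE, padj = 2.3e-06, wt -0.88, interaction -1.30, padj = 1.4e-05). *PSAO*, a subunit of photosystem I, had 462, 419.6 and 491 CPM in cycling light and 1906, 1548 and 1755 CPM in 24 h light (log2FC -1.94, padj = 2.2e-06, wt -0.58). Without replicate 2 in 24 h light, 30 of the 31 were lower.

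Of 21 genes of the light-harvesting antenna, 19 fell and 1 rose in *fc2* (median -1.55). The light response of 17 was lower than in wt and that of all 21 lower than in *fc2 pub4*. When a single library was left out, these counts were 14 to 20 against wt and 20 to 21 against *fc2 pub4*. *LHCB1.4* fell most, to 30.9, 29.8 and 72.3 CPM in cycling light against 1112, 724 and 971 CPM in 24 h light (log2FC -4.42 ± 0.36 SE, padj = 1.1e-05). It fell in wt too (-1.79, interaction -2.61, padj = 7.6e-04), and 13.7% of its 50-base stretches occur elsewhere in the genome. *LHCB6*, a minor antenna protein of photosystem II with a single gene, had 527, 512 and 588 CPM in cycling light and 2452, 1703 and 2166 CPM in 24 h light. The log2FC was -1.98 ± 0.15 (SE, padj = 6.0e-06, wt -0.34, interaction -1.62, padj = 8.3e-05). *LHCB1.3*, a gene of the major antenna with 17.0% of such shared stretches, had 2609.7, 2402 and 3171 CPM in cycling light and 8509, 6319 and 7967 CPM in 24 h light (log2FC -1.50, padj = 5.6e-05). The exceptions were *LHCB2.1*, with 651, 549 and 639 CPM in cycling light against 1183, 632 and 1036 CPM in 24 h light (padj = 0.02) and with 23.55% of such shared stretches, and *LHCB7*. The last, a rare type of antenna gene, rose with a log2FC of 1.08 (padj = 7.9e-05, wt 1.55). Without replicate 2 in 24 h light *LHCB2.1* passed as well, and 20 of the 21 fell.

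Of 6 genes of carbon fixation, 5 fell in *fc2* (median -0.86) and 5 had a lower light response than in wt. *CA1*, a plastid carbonic anhydrase gene, had 936, 1046 and 1777 CPM in cycling light and 3987, 4972 and 3642 CPM in 24 h light. It fell with a log2FC of -1.76 ± 0.24 (SE, padj = 2.4e-04), while wt had a log2FC of 0.34 (interaction -2.08, padj = 7.5e-05). *RCA*, which encodes Rubisco activase, stood at 8390.4, 8357 and 10092 CPM in cycling light and 12846, 10990.5 and 10544 CPM in 24 h light and did not pass (padj = 0.058). Its response, however, was below that of wt (interaction -1.02, padj = 2.6e-04). Between 3 and 5 of the 6 fell when a single library was left out, with 3 without replicate 1 or 2 in cycling light. In these libraries of polyadenylated RNA the plastid genome gave at most 0.0387% of counts in an *fc2* library. Of 65 plastid loci tested 3 fell and none rose.

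**Figure D4:**
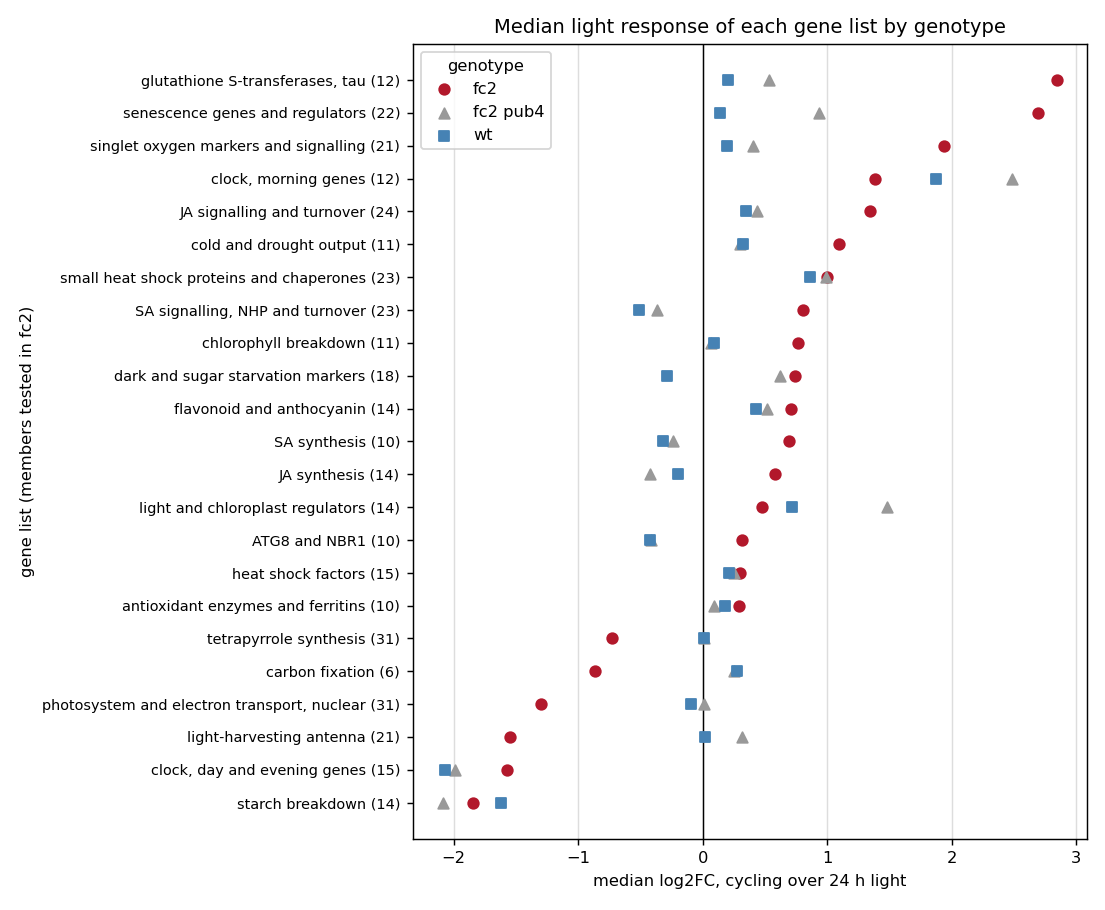
Median log2FC (cycling over 24 h light) of each gene list in *fc2*, *fc2 pub4* and wt. The medians of senescence genes (2.69) and tau glutathione S-transferases (2.84) were highest in *fc2* among the lists plotted, those of antenna and photosystem genes were -1.55 and -1.30, and the median of all genes tested in *fc2* was -0.02.

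Most genes of tetrapyrrole synthesis fell as well. Of 31, 23 were lower and 2 higher in *fc2* in cycling light (median -0.73), and the light response of 23 was below that of wt. Among enzymes of the chlorophyll branch, *PCB2*, which encodes divinyl reductase, had 42.5, 49.8 and 59.7 CPM in cycling light and 177, 194 and 199 CPM in 24 h light. Its log2FC was -1.93 ± 0.12 (SE, padj = 2.8e-06, wt -0.66, interaction -1.25, padj = 1.3e-05). *CHLM*, a methyltransferase gene, had 132, 132 and 157 CPM in cycling light and 330.2, 315 and 308 CPM in 24 h light (log2FC -1.199, padj = 7.4e-06) and a log2FC of 0.01 in wt. *CRD1*, which encodes a subunit of the cyclase, fell in *fc2* (log2FC -0.73, padj = 0.0014) where it rose in wt (0.49, padj = 0.0013, interaction -1.201, padj = 5.9e-05). *PORB*, a protochlorophyllide oxidoreductase gene, fell to 54.6, 55.2 and 73.6 CPM in cycling light against 372, 634 and 581 CPM in 24 h light. This was a log2FC of -3.13 ± 0.21 (SE, padj = 3.5e-06), with nearly the value of wt (-3.39, interaction 0.28, padj = 0.36). *HEMA1*, the glutamyl-tRNA reductase gene at the entry of the pathway, did not change in *fc2* past the threshold (log2FC 0.05, padj = 0.77) but had a lower response than in wt (1.25 in wt, interaction -1.18, padj = 6.7e-04).

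The 2 members that rose were *FC1* and *HEMA2*. *FC1*, the second ferrochelatase gene, had 151, 149 and 143 CPM in cycling light and 63.3, 63.9 and 54.8 CPM in 24 h light (log2FC 1.26 ± 0.08 SE, padj = 3.2e-06), further than in wt (0.64, interaction 0.64, padj = 8.5e-04). *HEMA2*, the lesser glutamyl-tRNA reductase gene, rose with a log2FC of 0.60 (padj = 5.1e-04, wt 0.27, interaction padj = 0.07). The remaining transcript of *FC2* was higher in cycling light too (log2FC 0.63 ± 0.10 SE, padj = 4.0e-04), against 0.13 in wt, whereas *OFP17* had a log2FC of 0.05 (padj = 0.73). The interaction of *FC2* with wt (0.52) no longer passed in 8 of the 12 fits that left out a library.

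Markers of 1O2 rose in *fc2*. Of 21 markers and signalling genes, 17 rose and 1 fell (median 1.94), and 14 had a higher and 2 a lower light response than in wt. Many were named in earlier work on 1O2 in related mutants, and some by the study itself, so their direction is not independent evidence. *BAP1*, a membrane-bound regulator of cell death, was at 20.7, 17.9 and 13.3 CPM in cycling light and 3.73, 4.61 and 3.08 CPM in 24 h light (log2FC 2.17 ± 0.20 SE, padj = 1.8e-05), with 0.16 in wt (interaction 2.03, padj = 0.0016). AT3G28580, an AAA-type ATPase gene used as a 1O2 reporter, had 54.1, 52.3 and 54.7 CPM in cycling light and 9.50, 7.57 and 7.38 CPM in 24 h light (log2FC 2.70 ± 0.11 SE, padj = 5.1e-07, wt 0.08). *OXI1*, a protein kinase gene of oxidative signalling, had 23.58, 22.9 and 13.7 CPM in cycling light and 1.76, 0.954 and 0.958 CPM in 24 h light (log2FC 4.00 ± 0.29 SE, padj = 5.2e-06, interaction 3.46, padj = 1.4e-04). Each of these 3 genes had 24 h libraries well below every cycling library.

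The zinc finger gene *ZAT12* rose with a log2FC of 3.33 (padj = 2.6e-06) and the factors *WRKY40* and *WRKY33* rose with 2.26 and 2.02 (padj = 5.1e-07 and 1.7e-06), all further than in wt (interaction 3.46, 2.14 and 1.49). *SIB1*, a sigma factor binding protein gene, rose to 63.6, 64.0 and 53.7 CPM against 36.4, 36.5 and 29.9 CPM in 24 h light (log2FC 0.80, padj = 1.7e-04), where it fell in wt (-0.96, padj = 1.5e-04). The mediators of 1O2 signals in thylakoids, *EX1* and *EX2*, did not pass in *fc2* (log2FC 0.11 and -0.12, padj = 0.2 and 0.15) and had lower responses than in wt (interaction -0.39 and -0.45, padj = 0.0017 and 2.7e-04). *MBS1*, another mediator, was the member that fell (log2FC -0.64, padj = 3.1e-04).

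Many genes of salicylic acid (SA) rose in *fc2*, and many of those of SA signalling fell in wt. Of 10 genes of SA synthesis, 8 rose and 1 fell in *fc2* (median 0.70), while in wt 4 rose and 2 fell. The response of 4 of them was higher and that of 3 lower than in wt, at a background of 15.3% and 16.0%. The lower count was 1 to 3 when a single library was left out, with 1 without wt replicate 2 in cycling light. *ICS1*, the isochorismate synthase that makes most SA, had 87.7, 99.3 and 101 CPM in cycling light and 67.4, 52.5 and 57.0 CPM in 24 h light. The log2FC of *ICS1* was 0.68 ± 0.11 (SE, padj = 4.6e-04), against -0.50 in wt (padj = 0.054, interaction 1.198, padj = 0.0015). *EDS5*, which encodes the plastid exporter of isochorismate, had 77.0, 74.7 and 70.7 CPM in cycling light and 18.7, 18.9 and 17.1 CPM in 24 h light (log2FC 2.00 ± 0.08 SE, padj = 5.1e-07, wt -0.73). *PBS3*, the next enzyme, rose with a log2FC of 2.23 (padj = 2.7e-06, wt -0.14). Of the phenylalanine ammonia-lyase genes of the other route, *PAL1* rose in both genotypes (log2FC 0.71 in *fc2* and 1.33 in wt, interaction -0.60). This interaction no longer passed in 3 of the 12 fits that left out a library. *PAL3* was the member of the list that fell in *fc2* (-1.33, padj = 1.7e-05).

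Of 23 genes of SA signalling, of N-hydroxypipecolic acid and of SA turnover, 13 rose and 1 fell in *fc2* (median 0.80), whereas in wt 1 rose and 13 fell, at a background of 19.2% and 16.1% in wt. The light response of 19 of them was higher in *fc2* than in wt and that of 18 higher than in *fc2 pub4*, and none was lower in either test. *PR1*, the classical marker of SA signalling, was at 2221, 1963 and 1567 CPM in *fc2* in cycling light and at 194, 229 and 278 CPM in 24 h light (log2FC 3.02 ± 0.17 SE, padj = 1.7e-06). In wt it was at 35.7 ± 8.67 CPM in cycling light and 189 ± 59.3 CPM in 24 h light (SD, n = 3 each), a log2FC of -2.41 (padj = 1.4e-05), and the interaction was 5.45 ± 0.34 SE (padj = 2.8e-07). The calmodulin-binding activator gene *CBP60G* rose to 195, 171 and 167 CPM against 33.3, 31.9 and 33.1 CPM in 24 h light (log2FC 2.42 ± 0.08 SE, padj = 5.1e-07, wt 0.22). *PAD4*, a lipase-like immune regulator gene, rose with a log2FC of 0.61 (padj = 9.7e-05) where wt had -0.91 (padj = 8.0e-04). *PR5* stood at 243, 309 and 224 CPM in cycling light and 206, 215 and 173 CPM in 24 h light and did not pass in *fc2* (padj = 0.039). Its response was nevertheless above that of wt (-1.36 in wt, interaction 1.75, padj = 8.3e-04). *CBP60A*, from the same family as *CBP60G*, rose in both (1.51 in *fc2* and 1.49 in wt, interaction 0.04, padj = 0.81).

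**Figure D5:**
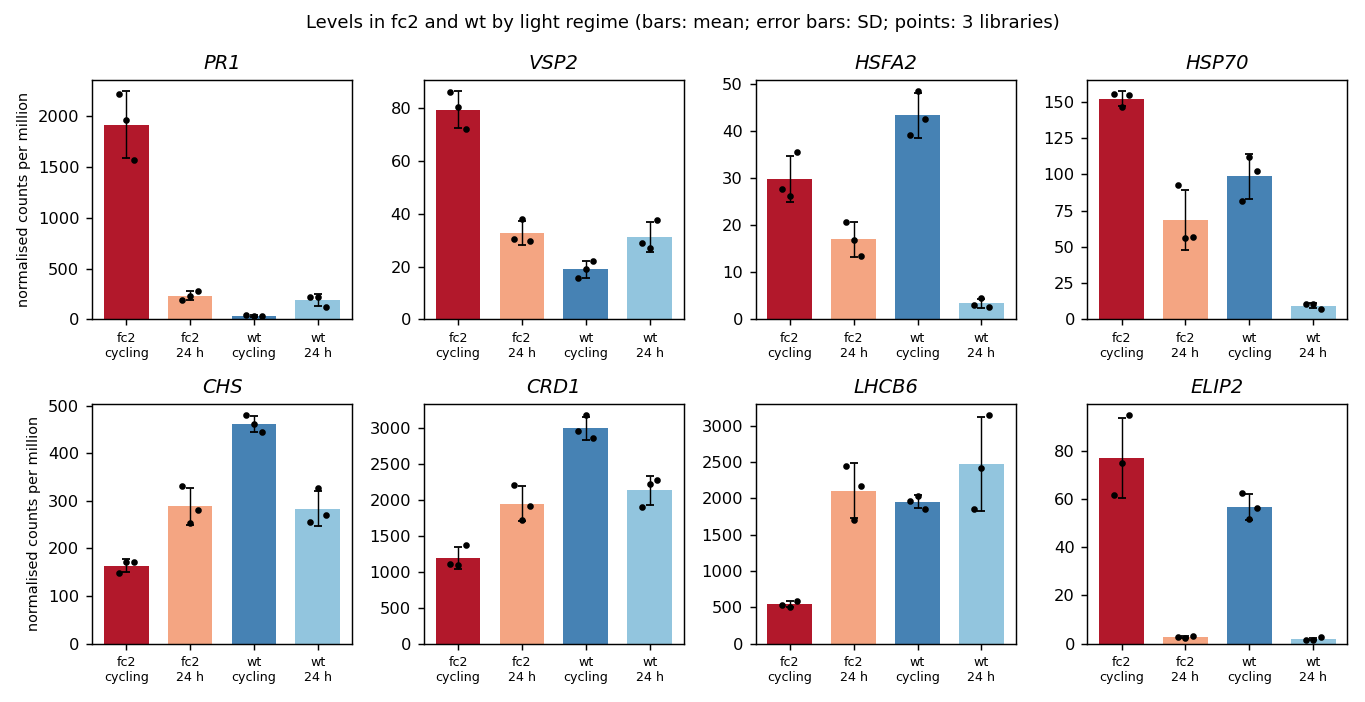
Level of 8 genes in *fc2* and wt in cycling and 24 h light (normalised counts-per-million, linear axis from 0; bars, mean; error bars, SD; points, 3 libraries). *PR1* was high only in *fc2* in cycling light among these 4 groups, *HSFA2* and *HSP70* had a higher 24 h level in *fc2* than in wt, *CHS* and *CRD1* moved in opposite directions in the 2 genotypes, and *ELIP2* rose in both.

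Jasmonic acid (JA) genes rose in *fc2* in part. Of 14 tested genes of JA synthesis, 8 rose and 2 fell (median 0.58), and 1 fell without replicate 2 in 24 h light or without replicate 1 or 2 in cycling light. *AOC3*, an allene oxide cyclase gene, had 31.5, 29.1 and 25.5 CPM in cycling light and 3.68, 5.16 and 3.98 CPM in 24 h light (log2FC 2.73 ± 0.14 SE, padj = 1.2e-06, wt 0.24, interaction 2.51, padj = 2.4e-05). The lipoxygenase gene *LOX4* rose with a log2FC of 2.59 (padj = 6.5e-07, wt 0.57). *AOC2*, a close relative of *AOC3*, fell to 24.8, 20.6 and 22.1 CPM against 122, 176 and 96.5 CPM in 24 h light (log2FC -2.57 ± 0.20 SE, padj = 8.1e-06), as it did in wt (-3.01, interaction padj = 0.18). *LOX2* stood at 981, 830.1 and 889 CPM in cycling light and 1021, 1432 and 838 CPM in 24 h light and did not pass (padj = 0.17).

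Among 24 tested genes of JA signalling and turnover, 22 rose and none fell (median 1.35). Of 25 tested for the interaction, 16 had a higher response than in wt and none a lower one, at a background of 15.3% and 16.0%. *MYC2*, the bHLH factor at the head of JA responses, had 172, 144 and 143 CPM in cycling light and 48.8, 64.8 and 44.7 CPM in 24 h light (log2FC 1.52 ± 0.14 SE, padj = 2.0e-05, wt 0.83). Its interaction with wt (0.71) no longer passed in 6 of the 12 fits that left out a library. Of the JAZ repressors, which JA removes and whose genes it induces, *JAZ7*, *JAZ5* and *JAZ1* rose most (4.09, 3.29 and 2.93, padj = 4.3e-05, 1.1e-06 and 1.5e-05), while *JAZ3* and *JAZ4* did not pass (padj = 0.028 and 0.07). *JRG21* and AT2G38240, which encode 2-oxoglutarate-dependent oxygenases, were nearly silent in 24 h light. *JRG21* had 203, 180.4 and 67.1 CPM in cycling light and 2.62, 3.52 and 1.66 CPM in 24 h light, and AT2G38240 had 218, 211 and 78.6 CPM in cycling light and 1.15, 1.78 and 1.19 CPM in 24 h light. Their log2FC were 5.84 ± 0.46 and 6.93 ± 0.45 (SE, padj = 8.4e-06 and 3.3e-06), and the third cycling library was the lowest of its group for both. Without it 23 of the 24 genes rose, and the count was 18 to 23 over the fits that left out a single library. *VSP2*, a vegetative storage protein gene of the MYC branch, rose to 85.9, 80.2 and 71.9 CPM against 30.5, 38.0 and 29.8 CPM in 24 h light (log2FC 1.26, padj = 1.4e-05) where wt had -0.71 (interaction 1.99, padj = 5.9e-06).

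Of 22 tested senescence genes and regulators, 21 rose and none fell (median 2.69), 19 further than in wt and 17 further than in *fc2 pub4*. *SAG13*, an early senescence-associated gene, was at 1435, 1405 and 743 CPM in cycling light and 37.8, 33.7 and 31.5 CPM in 24 h light (log2FC 5.10 ± 0.26 SE, padj = 1.1e-06, wt 0.85, interaction 4.27, padj = 1.7e-06). The NAC factor gene *ANAC019* had 86.5, 71.5 and 27.4 CPM in cycling light and 1.000, 2.07 and 1.45 CPM in 24 h light (log2FC 5.35 ± 0.47 SE, padj = 1.4e-05, wt -0.31), again with the third cycling library below the others and above all 24 h libraries. *SAG113*, a phosphatase gene of the abscisic acid pathway, rose with a log2FC of 5.86 (padj = 2.1e-06) and the positive regulator *ORE1* with 2.90 (padj = 7.9e-05). *NAP*, another NAC regulator of senescence, rose in *fc2* and wt (2.08 and 1.86, interaction 0.25, padj = 0.6). *SAG12*, a cysteine protease gene of late senescence, was at 0.696, 0.571 and 0.372 CPM in cycling light and at 0 in the 3 libraries of 24 h light, at least 5.98-fold higher when 3 counts per library are taken as the floor. Without replicate 3 in cycling light 21 of 22 rose as well.

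Genes of chlorophyll breakdown were divided. Of 11, 6 rose and 3 fell (median 0.77), at a background of 22.7% and 21.3%. *NYE1*, which encodes the magnesium dechelatase, had 91.0, 83.4 and 70.1 CPM in cycling light and 27.5, 24.0 and 23.8 CPM in 24 h light. The log2FC was 1.68 ± 0.11 (SE, padj = 3.0e-06), further than in wt (1.04, interaction 0.66, padj = 0.0021). *PAO*, the oxygenase that opens the ring, rose with a log2FC of 0.82 (padj = 1.5e-04, wt 0.17). *HCAR* and *RCCR*, a chlorophyll b reduction and a catabolite reductase gene, fell (-1.45 and -0.94, padj = 1.2e-04 and 6.6e-06). Of 10 genes of the ATG8 family and their receptor *NBR1*, which carry autophagy cargo, 4 rose and 1 fell in *fc2*, at the same background. The response of 7 was higher than in wt and that of none lower, at a background of 15.3% and 16.0%. *NBR1* had 454, 442 and 349.6 CPM in cycling light and 248, 244 and 222 CPM in 24 h light. Its log2FC was 0.78 ± 0.11 (SE, padj = 2.6e-04, wt -0.34, interaction 1.14, padj = 1.4e-05), and *ATG8H* rose with a log2FC of 1.55 (padj = 7.8e-04, wt -0.64).

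Many markers of darkness and sugar starvation rose in *fc2*, in leaves taken in the light. Of 18, 10 rose and 3 fell (median 0.74), at a background of 22.7% and 21.3%. In wt 3 rose and 6 fell (median -0.28). The response of 10 was higher than in wt and that of none lower, at a background of 15.3% and 16.0%. In *fc2 pub4* 11 rose and 6 fell (median 0.62). Set against *fc2 pub4*, the response of *fc2* was higher for 9 and lower for 2. *ASN1*, an asparagine synthetase gene repressed by sugar, had 404, 262 and 169.5 CPM in cycling light and 1.91, 1.22 and 2.88 CPM in 24 h light. This was a log2FC of 7.08 ± 0.39 (SE, padj = 1.6e-06), against a log2FC of 1.58 in wt (interaction 5.51, padj = 4.2e-06). *DIN1* had 229, 148 and 141 CPM in cycling light and 6.998, 4.44 and 7.14 CPM in 24 h light (log2FC 4.77, padj = 1.0e-06, wt 1.14). *DIN2*, a beta-glucosidase gene, had 144, 137 and 42.6 CPM in cycling light and 0.176, 0.0658 and 0.0871 CPM in 24 h light (log2FC 9.85 ± 0.70 SE, padj = 5.2e-06). *BCAT2*, an aminotransferase of branched-chain amino acid breakdown, rose with a log2FC of 4.13 (padj = 1.8e-06, wt 0.13). *DIN9* rose with a log2FC of 2.39 in *fc2* and 2.46 in wt, and *DRM1* fell in both (-2.58 in *fc2* and -2.66 in wt, interaction padj = 0.67).

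Some heat shock genes rose in *fc2*, and a few of them less than in wt. Of 15 tested heat shock factors, 5 rose and 1 fell in *fc2*, at a background of 22.7% and 21.3%, and 3 rose without replicate 2 or replicate 3 in 24 h light. Of 23 tested small heat shock proteins and chaperones 12 rose and 2 fell (median 1.00). Of these 23, 7 had a lower and 1 a higher response than in wt, at a background of 16.0% and 15.3%. When a single library was left out, 4 to 8 had a lower response, with 4 without *fc2* replicate 2 or wt replicate 2 or 3 in cycling light. *HSFA2*, the factor that sustains the heat response, had 27.7, 26.2 and 35.4 CPM in cycling light and 20.7, 16.7 and 13.4 CPM in 24 h light in *fc2* (log2FC 0.79 ± 0.17 SE, padj = 0.0032), with no overlap. In wt it had 43.3 ± 4.75 CPM in cycling light and 3.44 ± 0.969 CPM in 24 h light (SD, n = 3 each), a log2FC of 3.65, and the interaction was -2.84 ± 0.26 SE (padj = 3.1e-06). Its rise in *fc2* no longer passed without replicate 2 or replicate 3 in 24 h light (log2FC 0.78 and 0.64). *HSP70* (AT3G12580) had 156, 146 and 155 CPM in cycling light and 92.7, 56.3 and 56.7 CPM in 24 h light in *fc2* (log2FC 1.13 ± 0.18 SE, padj = 5.1e-04), against 98.7 ± 15.73 CPM in cycling light and 9.56 ± 2.04 CPM in 24 h light in wt (interaction -2.21 ± 0.27 SE, padj = 2.1e-05).

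The 24 h level of both genes was thus higher in *fc2* than in wt in every library, a comparison given here as values with no test. *HSP90.1* stood at 137, 121 and 142 CPM in cycling light and 126, 83.1 and 73.7 CPM in 24 h light and did not pass in *fc2* (padj = 0.045), with a log2FC of 1.82 in wt (interaction -1.32, padj = 2.1e-04). *MBF1C* and *HSFB2A*, a coactivator and a repressor-type factor gene of the same response, rose in both genotypes (2.23 and 1.78 in *fc2*, 2.202 and 1.81 in wt). AT4G21870, an HSP20-like chaperone gene, fell in *fc2* (-1.14, padj = 3.2e-04) where wt had 0.42, and *HSFA4A*, a factor linked to oxidative stress, rose in *fc2* (0.68, padj = 1.2e-04) where it fell in wt (-0.82, padj = 1.2e-04). Without replicate 2 in 24 h light 3 heat shock factors and 10 chaperone genes rose.

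Detoxification genes rose together. Of 12 tau glutathione S-transferases, which conjugate glutathione to reactive electrophiles, 11 rose and none fell (median 2.84), 9 of them further than in wt. *GSTU3* had 122, 113 and 53.7 CPM in cycling light and 0.617, 0.428 and 0.552 CPM in 24 h light (log2FC 7.46 ± 0.40 SE, padj = 1.2e-06). It had 1.02 in wt, and the interaction (6.55, padj = 6.0e-04) no longer passed without wt replicate 1 in 24 h light (5.46). *GSTU19* had the smallest rise that passed (0.70, padj = 0.003), a call kept only when replicate 3 in cycling light was the library left out (log2FC 0.61 to 0.73 without each of the others). Of 10 tested antioxidant enzymes and ferritins, 5 rose and 3 fell, at a background of 22.7% and 21.3%, and the members went different ways. *CAT2* had 2561, 2616 and 3265 CPM in cycling light and 1923, 1459 and 1456 CPM in 24 h light. Its log2FC was 0.78 ± 0.15 (SE, padj = 0.002), against 1.66 in wt. The interaction (-0.85) no longer passed in 4 of the 12 fits that left out a library. The call of *CAT2* in *fc2* was lost without replicate 2 or 3 in 24 h light (log2FC 0.71 in both). *CAT3* fell less than in wt (-1.08 and -1.96, interaction 0.90, padj = 7.8e-04). The plastid superoxide dismutase gene *CSD2* fell to 265, 280.2 and 351 CPM against 727, 709 and 737 CPM in 24 h light (log2FC -1.30, padj = 1.7e-05, wt -0.16), while the cytosolic *CSD1* rose (0.60, padj = 5.5e-04, wt -0.36). *FER1*, a ferritin gene, rose in both genotypes (1.92 and 1.69). Without replicate 2 or replicate 3 in 24 h light, or without replicate 1 or 2 in cycling light, 2 or 3 of the 10 rose and 3 fell.

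Among 14 genes of flavonoid and anthocyanin synthesis, 6 rose and 2 fell, at a background of 22.7% and 21.3%. Between 4 and 6 rose when a single library was left out. *CHS*, the entry enzyme, fell in *fc2* to 149, 171 and 171 CPM against 330.3, 254 and 282 CPM in 24 h light (log2FC -0.84 ± 0.11 SE, padj = 1.9e-04). In wt it had 462 ± 16.8 CPM in cycling light and 284 ± 37.6 CPM in 24 h light (SD, n = 3 each; log2FC 0.70, interaction -1.52 ± 0.15 SE, padj = 5.5e-06). *FLS1*, which makes flavonols, did the same (-0.81 in *fc2* and 0.84 in wt, interaction -1.63, padj = 7.5e-06). The MYB activators of anthocyanin genes rose, *PAP1* to 8.60, 7.50 and 8.34 CPM against 1.85, 1.61 and 0.900 CPM in 24 h light (log2FC 2.46, padj = 2.3e-05) and *PAP2* with a log2FC of 3.02 (padj = 4.2e-05). Of 11 tested cold and drought genes 5 rose and 2 fell, at a background of 22.7% and 21.3%. The count that rose was 2 to 7 when a single library was left out, with 3 without replicate 1 and 2 without replicate 3 in 24 h light, and 1 fell without any 1 of the libraries other than replicate 3 in 24 h light. *DREB2A*, a gene of drought and heat responses, had 13.2, 10.2 and 8.21 CPM in cycling light and 2.15, 2.93 and 2.56 CPM in 24 h light (log2FC 2.03, padj = 2.8e-05, wt 0.02), and *COR15B*, a gene of cold acclimation, fell (-1.91, padj = 4.5e-04, wt -1.82).

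Apart from the lists, the highest log2FC among DEGs without overlap and with at least 50 normalised counts in a group belonged mostly to genes that were nearly silent in 24 h light. *NIT2*, a nitrilase gene, had 1886, 1558 and 783 CPM in cycling light and 7.14, 6.02 and 5.02 CPM in 24 h light (log2FC 7.84 ± 0.37 SE, padj = 8.2e-07, wt 0.92), with 5.66% of its 50-base stretches found elsewhere. The Kunitz protease inhibitor gene *KTI1* had 733, 669 and 243 CPM in cycling light and 2.23, 2.40 and 1.39 CPM in 24 h light (log2FC 8.07 ± 0.49 SE, padj = 2.3e-06). *DOX1*, an alpha-dioxygenase gene, had 188, 174 and 48.7 CPM in cycling light and 0.265, 0.230 and 0.465 CPM in 24 h light (log2FC 8.69 ± 0.67 SE, padj = 7.5e-06). The osmotin gene *OSM34* and the glyoxalase gene *GLYI7* rose with log2FC of 7.99 and 7.81 (padj = 6.5e-06 and 2.1e-05). In each of these the third cycling library was lowest and still far above 24 h light. Where no 24 h library passed 3 counts, only a bound can be given, which was at least 124-fold for the ERF gene *RAP2.6* (17.9, 12.3 and 3.80 CPM in cycling light and 0, 0.0658 and 0 CPM in 24 h light). It was at least 124-fold for the Kunitz inhibitor gene AT3G04320 and at least 22.2-fold for *GPAT5*, an acyltransferase gene of suberin synthesis. The lowest of these bounds was 19.5-fold, for the glycine-rich protein gene AT2G05510.

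The lowest log2FC by the same rule belonged to genes that also fell in wt. AT1G07050, a CCT motif gene with an evening element in its promoter, had 0.596, 0.353 and 0.531 CPM in cycling light and 16.2, 48.0 and 23.4 CPM in 24 h light (log2FC -5.89 ± 0.48 SE, padj = 1.0e-05, wt -4.19). *JMJD5*, a histone demethylase gene tied to the clock, had 0.994, 1.49 and 0.558 CPM in cycling light and 17.73, 46.0 and 20.1 CPM in 24 h light (log2FC -4.80, padj = 2.3e-05, wt -4.05). AT1G70820, a phosphoglucomutase-like gene, and the thioredoxin-like gene *WCRKC1* fell as well (log2FC -4.71 and -4.50, padj = 6.5e-07 and 1.4e-06). *FBA5*, an aldolase gene, fell to 8.30, 8.88 and 10.9 CPM against 151, 287 and 202 CPM in 24 h light. The log2FC was -4.53 ± 0.24 (SE, padj = 1.2e-06), further than in wt (-1.87, interaction -2.64, padj = 4.9e-06). *ACS4*, a gene of ethylene synthesis, did so too (interaction -2.87, padj = 0.0012). Of the DEGs that fell in *fc2*, the interaction with wt was lowest for AT1G13650, with 7.35, 7.93 and 10.8 CPM in cycling light and 87.4, 52.2 and 75.7 CPM in 24 h light in *fc2*. Its log2FC was -3.07 in *fc2* (padj = 4.0e-06) and 0.50 in wt (interaction -3.55 ± 0.30 SE, padj = 1.5e-06). AT5G47440, AT1G07450 and AT1G32780 followed with interactions of -2.93, -2.74 and -2.68 (padj = 5.2e-05, 8.7e-04 and 4.8e-04). Their levels were low, 1.84 ± 0.200 CPM in cycling light and 5.43 ± 2.34 CPM in 24 h light for the last (SD, n = 3 each). The fall of AT1G07450 in *fc2* (log2FC -1.91, padj = 0.0063) no longer passed without replicate 2 in cycling light or without any 1 of the 24 h libraries (log2FC -2.09 to -1.48). Of the DEGs that rose, the fitted interaction put *DIN2*, AT2G15780, *WRKY66*, AT3G13432 and AT1G76480 first. For *DIN2* the 24 h libraries of wt ranged from 0.487 to 28.3 CPM, and for the other 4 the 24 h libraries of *fc2* held at most 3 counts, so that neither the size of their difference nor their order can be given. The interaction of AT2G15780 no longer passed without wt replicate 1 in 24 h light, that of AT3G13432 without wt replicate 2 in 24 h light and that of AT1G76480 without wt replicate 1 or 3 in 24 h light (fitted values 9.95, 8.89 and 10.2 to 10.3). *WRKY66*, for instance, had 1.52, 1.87 and 0.903 CPM in cycling light and 0, 0 and 0.0581 CPM in 24 h light, at least 15.67-fold higher.

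Of the 23 genes for which the study designed RT-qPCR primers, 16 rose and 3 fell in these libraries. The study chose them with its results in view, so this is not independent evidence of a direction. Besides those given above, the transporter genes *PTR3* and *AAP3* rose (log2FC 1.09 and 1.56, padj = 0.0013 and 0.0022), although *AAP3* no longer passed without replicate 3 in 24 h light (1.38). So did *NOD* and a chitinase gene (AT2G43620) with 2.06 and 2.23 (padj = 8.4e-06 and 3.9e-06). *LHCB1.2* fell to 581, 490.4 and 590.2 CPM in cycling light against 2483, 1318 and 2454 CPM in 24 h light (log2FC -1.93, padj = 8.2e-05). The calmodulin gene *CAM1* fell (-0.55, padj = 0.0016) less than in wt (-1.51, interaction 0.99, padj = 1.0e-04). *ACTIN2*, *GPA1*, *CHLH* and *PR2* did not pass, with log2FC of 0.32, 0.21, -0.24 and -0.03 (padj = 0.03, 0.016, 0.24 and 0.84).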

How the data were processed

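RNA was measured in total leaf tissue by single-end sequencing of 50 bases of stranded mRNA libraries. Per the labels and methods, the authors aligned reads to TAIR10 with HISAT2 2.1.0 in the RMTA workflow, used StringTie 1.3.4, and deposited raw counts per gene locus, with no normalization, for 33602 loci and 18 libraries. The methods text gives plant ages a day younger than the labels, which are used here. The strand setting of the counting is not given in the sources used here, and 32 of the 150 genes named with values overlap a gene on the opposite strand and 7 (*CA1*, *PAO*, *PHS2*, *FBA5*, *RCCR*, *FC1* and *LNK4*) one on the same strand, so their counts could be mixed with those of the neighbour. Counts are subject to sampling, and *fc2* libraries held 30100674 to 37880398.

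Groups were taken from the labels. Counts were filtered with filterByExpr, scaled by the trimmed mean of M-values (TMM) and tested with the quasi-likelihood F-test of edgeR 4.0.16 in R 4.3.3, on the 6 libraries of a genotype for its light response and on 12 libraries for the interaction with wt or with *fc2 pub4*. P-values were adjusted over all genes tested (padj, Benjamini-Hochberg). DEGs had padj below 0.01 and an absolute log2FC above 1.5, the thresholds of the study, and list members were counted at padj below 0.01. The biological coefficient of variation was 11.5% in *fc2*. CPM are TMM-scaled over all 18 libraries, errors are SD over 3 libraries or the SE of the log2FC, and a floor of 3 counts per library stands in for a group with at most 3 counts, for counting error only. The code was tested on simulated data. No 2 libraries of a group agreed within sampling noise.

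The 30 gene lists and the members were chosen with earlier results of these data known. Genes were named by rule, namely *FC2* and *OFP17*, the 15 highest and 15 lowest log2FC among DEGs with no overlap and a mean of at least 50 normalised counts in a group, up to 4 members a direction with the largest changes in each list and any member needed to account for it, the RT-qPCR genes of the study, and 5 DEGs a direction with the largest interaction with wt and with the largest change shared with wt (unadjusted interaction p above 0.05). Of these, some are given by range or count. Promoters (500 bases), 30-base stretches and the share of 50-base exon stretches found elsewhere came from the RefSeq annotation of TAIR10.1, which held 32835 of the loci. Alternatives were DESeq2 1.42.0, its size factors, library size alone, other filters and thresholds, all 18 libraries in 1 fit, a replicate block, no organelle loci and each library left out.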

Additional observations from a re-analysis of the deposited data

Results flagged for a closer look

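The light response differed between genotypes by the test of the difference itself for 3122 genes that were higher and 3259 that were lower in *fc2* than in wt, and for 2916 higher and 2901 lower in *fc2* than in *fc2 pub4* (padj < 0.01, edgeR). Of the genes described above, those with a difference above 3 on the log2 scale are given here.

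Against wt, the response of *fc2* was higher for *DIN2* (13.70), *DOX1* (9.71), *GLYI7* (7.80), *OSM34* (7.76), *KTI1* (7.54), *NIT2* (6.94), *GSTU3* (6.55), AT2G38240 (6.24), *ANAC019* (5.70), *ASN1* (5.51), *PR1* (5.45) and *JRG21* (5.08). It was also higher for *JAZ7* (4.33), *SAG13* (4.27), *BCAT2* (4.02), *DIN1* (3.65), *SAG113* (3.57), *OXI1* (3.46), *ZAT12* (3.46) and *ORE1* (3.34), and it was lower for AT1G13650 (-3.55). The wt libraries in 24 h light differed widely for *DIN2*, as given above. Its 13.70 is therefore a fitted value, and neither its size nor its place in this order is firm. The differences of *DOX1*, *GLYI7* and *GSTU3* no longer passed without wt replicate 1 in 24 h light (5.32, 5.24 and 5.46).

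Against *fc2 pub4*, the response of *fc2* was higher for *DIN2* (7.67), *DOX1* (7.58), *KTI1* (6.63), *OSM34* (6.43), *GLYI7* (5.89), *GSTU3* (5.77), AT2G38240 (5.42), *NIT2* (4.84), *JRG21* (4.72), *PR1* (4.31), *ANAC019* (4.29), *JAZ7* (4.104) and *SAG13* (3.90). It was lower for *ACS4* (-3.68), *LHCB1.4* (-3.65), AT1G13650 (-3.35) and AT1G07450 (-3.22). The differences of *GLYI7* and AT2G38240 no longer passed without a single *fc2 pub4* library (5.41 and 4.90). No value is given for a further 5 genes against wt (AT2G15780, *WRKY66*, AT3G13432, AT1G76480 and *GPAT5*) and 1 against *fc2 pub4* (AT2G15780), since a group held at most 3 counts per library there, where a fitted difference depends on the prior count and gives no bound. Groups of 3 libraries are too small for a test of single outlying values.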

How the results depend on the processing

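The direction and the size class of the counts held under most alternatives. The counts of DEGs in *fc2* were 1433 up and 508 down with DESeq2, 1452 and 518 in a fit of all 18 libraries, 1065 and 427 with at least 10 counts in every library, and 1305 to 1528 up and 446 to 579 down when 1 library was left out. With an absolute log2FC above 1 they were 2140 and 1401 in *fc2*, 1007 and 732 in wt, and 1283 and 926 in *fc2 pub4*. Scaling by library size alone changed the split of the interactions to 4968 higher and 1851 lower against wt and 4882 and 1588 against *fc2 pub4*, and with it the median interaction of all genes moved to 0.19 and 0.20 (-0.03 and -0.02 with TMM), so with that scaling differences are to be read against these medians. Of 360 list counts under the alternatives, 10 moved by more than 1.5 times. Among log2FC of named genes that did not pass, the sign turned for *OFP17* without replicate 2 in 24 h light (-0.066, with 0.128 as the highest value without a library), for *HEMA1* without the same library (-0.079) or without replicate 3 in cycling light (-0.026, with 0.164 as the highest), and for *PR2* with library size alone (0.078) or without either of these libraries (0.022 and 0.071, with -0.101 as the lowest). *SAG12* lost its call in the fit of all 18 libraries (7.14). The cause was not tested.

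Same-numbered *fc2* libraries deviated together weakly (r = 0.12, 0.09 and 0.22 across genes for numbers 1, 2 and 3, against -0.17 to 0.08 for unlike numbers). Each library correlated best with its own number, a hint from the data and not from the design. The labels do not say that a number marks a shared batch, and these correlations cannot settle whether it does. The main fits assumed no pairing. A fit with the replicate number as a block gave 1370 up-regulated and 514 down-regulated DEGs in *fc2*. Under the block the interactions of *PRR5* with wt (2.03) and of *LHCB7* and *CCA1* with *fc2 pub4* (-0.53 and -1.21) no longer passed.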

Other observations

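Of 1236 transcription factor genes tested, 345 were higher and 189 lower in *fc2* in cycling light at padj < 0.01 (edgeR), with a background of 22.7% and 21.3% over all genes. Of 61 WRKY genes, which encode factors of defence and senescence, 34 were higher and 2 lower (median log2FC 1.18), while in wt 10 of 57 were higher and 11 lower. Among 62 WRKY genes tested for the interaction, 32 had a higher and 1 a lower light response in *fc2* than in wt. Of 76 NAC genes 35 were higher and 4 lower, and of 88 ERF genes 38 were higher and 6 lower. In wt 17 NAC genes were higher and 2 lower, and 18 ERF genes higher and 10 lower. Among 77 NAC genes tested for the interaction, 26 had a higher and 2 a lower light response in *fc2* than in wt. Among 92 ERF genes 17 had a higher and 5 a lower one, at a background of 15.3% and 16.0% over all genes. Of 12 genes of the CO-like family, with light and flowering regulators, 3 were higher and 7 lower in *fc2* (median -1.08) and 4 higher and 6 lower in wt. Among 13 tested for the interaction, the light response of 1 was higher and of 2 lower in *fc2* than in wt, at the same background. The bHLH family was split evenly, with 26 higher and 27 lower of 115.

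Of 66 loci that the study listed for microautophagy, 64 were tested in *fc2*, and 21 were higher and 1 lower (median 0.23). Over all genes tested 22.7% were higher and 21.3% lower. The light response of 28 was higher and of 2 lower than in wt, and of 29 higher and of 1 lower than in *fc2 pub4*. The shares over all genes were 15.3% and 16.0% against wt and 14.2% and 14.1% against *fc2 pub4*. The study chose this list, so the counts are not independent evidence of its direction.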
